A study of Mus musculus with 16 samples.

Results

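Histone H3 acetylated on lysine 27 (H3K27Ac) was mapped by chromatin immunoprecipitation and sequencing in the livers of 15 mice. Of these, 5 were WT, 5 were Mdr2-/- with inflamed liver and 5 were Mdr2-/- with hepatocellular carcinoma (HCC), sampled as nodules. Each animal gave 1 list of peaks. The sample label speaks of nodules, and whether a list came from a single nodule is not known here. A nodule below means the sample of 1 HCC animal. The regions described here are those that every inflamed liver carried as a peak while the other samples, WT and HCC, lacked one, and they are called inflammation-only regions. Overlapping or adjoining peaks of the 15 lists on chromosomes 1 to 19 were merged into 55617 regions, and 484 of these, 0.870% of all merged regions, had this pattern. Presence or absence of a peak chose the regions, so that their count is a description and not a test.

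WT mice, with an intact Mdr2 gene, were of the strain FVB.129P2 in the sample records, while the paper names FVB/NJ for them. Inflamed livers and nodules came from FVB.129P2-Abcb4tm1Bor/J mice, which lack Mdr2 (Abcb4) in every cell. All 15 animals had received clodronate liposomes, at 50 μg per g of body weight for 48 h, an agent that depletes macrophages, so that the controls had it too. The tissue was not sorted into cell types. According to the sample records, inflamed livers were taken at 7 to 8 months and WT livers and nodules at 14 to 19 months. The groups in which these regions lacked a peak were therefore both older than the group in which they had one, and inflammation and age cannot be told apart here. The paper calls the WT mice age matched, and no WT liver of the younger age was analysed here.

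As background, enzymes such as p300 and CBP add the acetyl group of H3K27Ac, which is commonly used to tell working promoters and enhancers from silent ones. Mdr2 moves phosphatidylcholine into bile, where it shields hepatocytes and bile duct cells from bile salts. Without it, bile injures the liver chronically, and inflammation, growth of ductular cells and scarring precede the growth of tumors. Unsorted tissue of such livers holds chromatin of hepatocytes together with that of bile duct, endothelial, stellate and remaining immune cells. In bulk tissue a smaller share of a cell type and less acetylation per cell cannot be told apart.

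The deposited lists gave each peak a position and a score, starting at 50. The score is taken here to be that of the peak caller, MACS, since the sources used here do not state its scale, and low scores are read as weak peaks on that footing. On chromosomes 1 to 19 the lists held 25867 to 29618 peaks in WT livers, 35188 to 40063 in inflamed livers and 26235 to 41863 in nodules. The number of reads per library is unknown, and a longer list finds weaker regions. A region without a peak is one in which none was called, not one shown to lack acetylation. In WT animal 130748 and HCC animal 124711 the share of peaks with the tied score of 3100 was 23.7 and 24.6%, above the 14.4 to 18.3% of the other WT livers and the 9.65 to 14.3% of the other nodules, and both were kept. The paper set a pair of the samples aside as outliers in its own analysis without naming them in its text, whereas all 15 lists were used here. Without WT 130748 and HCC 124711 642 regions had the pattern. A genome sequence and gene positions of the build of the files, mm9, were not used here, and regions are given by position without gene names.

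With the lists as deposited, presence in the whole of a single group was far more frequent for inflamed livers than for the other groups. Against the 484 inflammation-only regions (0.870% of merged regions), 33 (0.0593%) were WT-only by the same definition and 31 (0.0557%) nodule-only. Inflamed lists were longer than all WT lists and than 3 of the 5 nodule lists. When every list was cut to its best 25867 peaks, 214 regions had the pattern, of which 81 of the 484 were part, and with the top 50% of each list 134 had it, of which 5 of the 484 were part. With scores of at least 100, 376 had it, of which 176 of the 484 were part. Only 5 of the 484 were in the upper 50% of the scores in all 5 inflamed livers, so that few could remain in that setting. The number and the identity of the regions thus changed when weaker peaks were left out, and the length of the lists as such was not tested. Counts of WT-only and nodule-only regions are not given here for shortened lists. Patterns shared by a pair of groups were also rare, with 69 regions (0.124%) that inflamed livers and nodules shared without WT livers, 16 (0.0288%) that WT and inflamed livers shared without nodules, and 6 (0.0108%) that WT livers and nodules shared without inflamed livers. All 15 animals shared 11874 regions (21.3%).

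The inflammation-only regions are a part of 2 larger sets. Regions present in every inflamed and absent from every WT liver, called gained, numbered 2713 (4.88% of merged regions), and 484 of them (17.8%, exact binomial 95% interval 16.4 to 19.3) had no peak in any nodule. The interval covers counting error only. The other 2229 gained regions had a peak in 1 to 5 nodules, most often in 2 (714 regions) and least often in all 5 (69 regions). Regions that every inflamed liver and no nodule carried, whatever the WT livers showed, numbered 725 (1.30% of merged regions). WT livers also lacked a peak in 484 of these 725 (66.8%), 1 WT liver had one in 127 (17.5%), and all 5 had one in 16 (2.21%). Most regions present in every inflamed liver and absent from every nodule thus also had no peak in any WT liver. Both absences belong to the pattern that chose the regions, so that this share and those that follow are a description. Among regions of all 5 inflamed livers the share without a WT peak went down step by step with the number of nodules that had one, from 66.8% with none to 51.6%, 40.1%, 19.3%, 6.80% and 0.532% with 1 to 5 nodules.

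**Figure D1:**
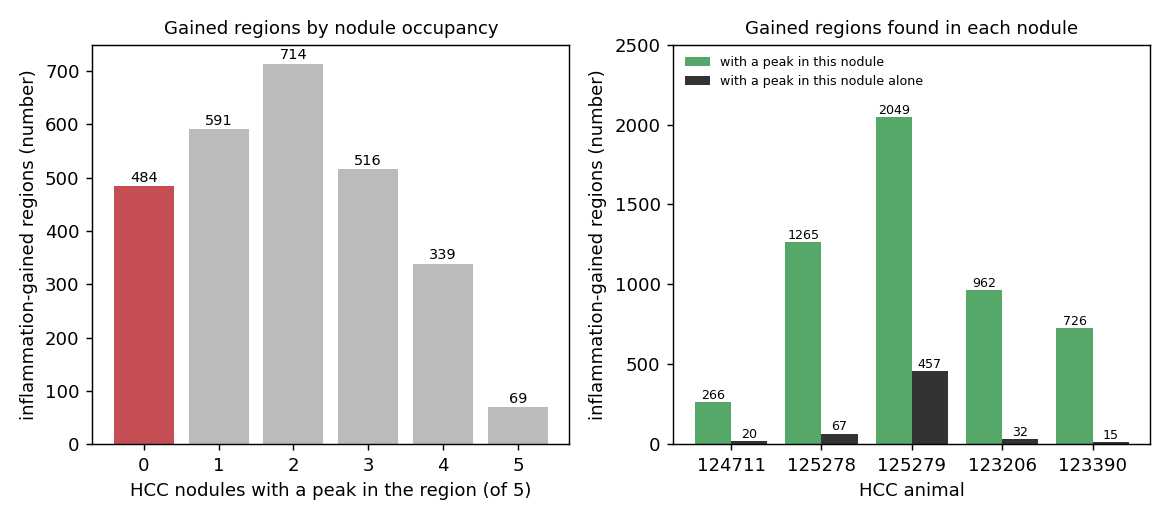
Left, number of gained regions (y axis) by how many of the 5 HCC nodules had a peak in them (x axis), with the 484 inflammation-only regions in red. Right, for each HCC animal, the number of gained regions with a peak in it (green) and in it alone among nodules (black); HCC 125279 had 2049 and 457 and stands above the other 4 nodules on both.

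The nodules did not contribute equally to the absence of peaks. HCC animal 124711 had a peak in 266 of the 2713 gained regions (9.80%), 123390 in 726 (26.8%), 123206 in 962 (35.5%), 125278 in 1265 (46.6%) and 125279 in 2049 (75.5%). The nodules stood in the same order by the length of their lists, from 26235 peaks in 124711 to 41863 in 125279. Of the 591 gained regions with a peak in a single nodule, HCC animal 125279 was that nodule in 457 (77.3%), against 67 for 125278, 32 for 123206, 20 for 124711 and 15 for 123390. The 457 peaks of 125279 were not at the limit of detection, with a median score of 214, and 111 of them (24.3%) scored under 100. In 125278 the 67 peaks had a median score of 76.5, and 47 of them (70.1%) scored under 100. The pattern of no nodule at all therefore rested on HCC animal 125279 more than on any other nodule. Without it 944 regions had the pattern, and without any one of the other nodules 503 to 551.

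Among inflamed livers, animal 148990 had the corresponding place. Regions that missed the pattern by 1 inflamed liver numbered 630, and the liver without a peak was 148990 in 497 of them, 148998 in 57, 149199 in 40, 148997 in 26 and 149198 in 10. This animal had the shortest list of its group, 35188 peaks. Leaving it out gave 985 regions, and leaving out any other inflamed liver gave 505 to 543. On the WT side, 127 regions missed the pattern by 1 WT peak, which lay in 130748 in 63 of them, 130747 in 44, 134501 in 13, 129296 in 4 and 129297 in 3. Those WT peaks were weak, with a median score of 75.8 and 91 of 127 (71.7%) under 100. Without both HCC 125279 and inflamed 148990, the count was 1606. Leaving out an animal can add regions to an all-or-none pattern but hardly remove any.

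To see how far the pattern extended to a further animal, regions were chosen by the peaks of 14 animals and then looked up in the one left out, whose peaks still helped to draw the borders of the merged regions. In inflamed livers the regions chosen on the others had a peak in 94.9% (148997), 89.5% (148998), 98.0% (149198), 92.4% (149199) and 49.3% (148990) of cases. In WT livers the shares were 2.62% (134501), 0.820% (129296), 8.33% (130747), 0.616% (129297) and 11.5% (130748). In HCC nodules they were 3.97% (124711), 12.2% (125278), 48.6% (125279), 6.20% (123206) and 3.01% (123390). Inflamed livers averaged 84.8 ± 20.1%, WT livers 4.78 ± 4.89% and HCC nodules 14.8 ± 19.2% (SD, n = 5 each), and among all merged regions the same animals had a peak in 55.6 ± 3.02%, 41.8 ± 2.32% and 49.5 ± 10.4%. No inflamed liver fell below the highest nodule, although 148990 (49.3%) and HCC 125279 (48.6%) had nearly the same share. The sets chosen in each round overlap. For inflamed livers they rest on fewer inflamed animals, so that no test was made against this group. Each set holds all inflammation-only regions together with those that missed the pattern by the left-out animal alone. The shares therefore restate the counts of such regions given above and are not independent of each other. The rule treats WT livers and nodules alike, and between them the held-out shares differed by 10 percentage points (HCC minus WT, exact permutation test, two-sided, p = 0.294, Benjamini-Hochberg adjusted p = 0.365 over 2 tests). These shares come from the same peak calls that chose the regions and depend on each other, so that nothing is read from the test.

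**Figure D2:**
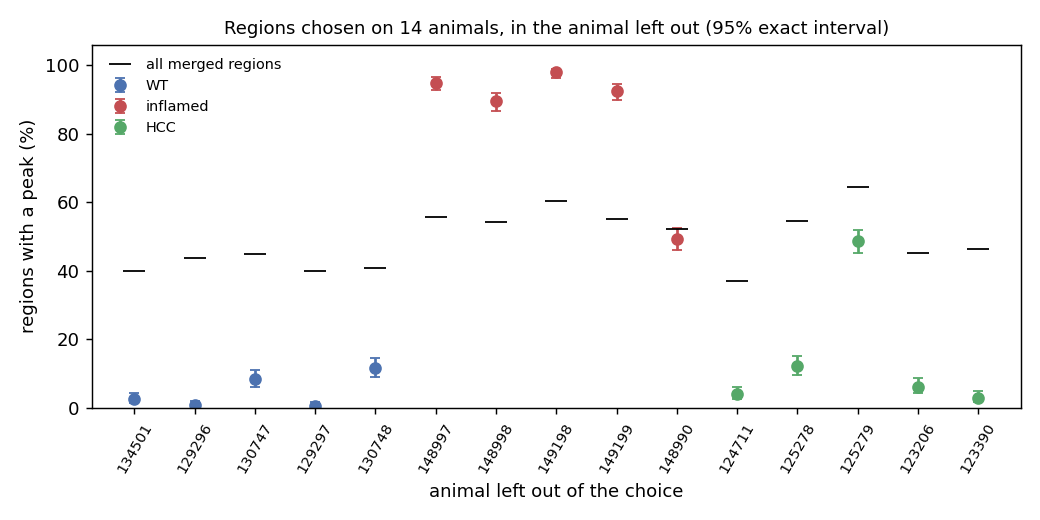
Share of regions with a peak (y axis, %) in the animal left out (x axis), for regions chosen by the same pattern on the other 14 animals, with exact 95% binomial intervals; black dashes give the share of all merged regions with a peak in that animal. Inflamed livers lie at 89.5 to 98.0% except 148990 (49.3%), WT livers at 0.616 to 11.5%, and nodules at 3.01 to 12.2% except 125279 (48.6%).

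Inflammation-only regions were of ordinary width and of low to middle strength. Their median width was 3423 bp, close to the 3526 bp of all merged regions, with quartiles at 2843 and 4398 bp and a range from 1583 to 17307 bp, and they covered 1.87 Mb in all. Gained regions with a peak in 1 to 4 nodules were 4102 bp wide in the median, those with a peak in all 5 nodules 6999 bp, and regions with a peak in all 15 animals 7379 bp. Merging joins the peaks of more animals in the latter sets and so widens them. Within single inflamed livers the difference was small, although the merged borders still decide which of a liver's peaks are counted together. The median length under peaks was 2410 to 3157 bp in inflammation-only and 2675 to 3221 bp in the other gained regions, with a difference of -151 ± 165 bp (SD, n = 5), below 0 in 5 of 5 animals. It was -442 bp in 148990 and between -113 and -44.0 bp in the others, and with equal lists the mean turned to 178 bp. With regions merged from the inflamed lists alone the mean was -121 bp. The peaks of the 5 inflamed livers lay over each other, with a median of 2001 bp common to all 5, or 61.9% of the width of the region, and 6 of the 484 regions had no base under a peak in all 5 livers.

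Scores were compared within each list as percentiles, in which the weakest peak of an animal is near 0 and peaks with equal scores share a value. Where an animal had several peaks in a region, the highest was used, which can raise the values of wider regions. The median inflammation-only region stood at percentile 33.6 in 148997, 32.3 in 148998, 43.6 in 149198, 31.0 in 149199 and 17.5 in 148990. The other gained regions stood at 35.2, 33.1, 43.0, 35.3 and 28.9 in the same animals. Inflammation-only minus other gained regions was -4.23 to 0.588 points in 4 livers and -11.4 points in 148990. The mean difference was -3.50 ± 4.77 points (SD, n = 5), within the spread between animals, and it was below 0 in 4 of 5 animals. Gained regions that all 5 nodules shared were stronger, with medians of 44.0 to 53.5. On the scale of the score itself, the median inflammation-only peak scored 197, 170, 328, 170 and 95.8 in these livers, against 211, 177, 318, 206 and 152 in the other gained regions.

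**Figure D3:**
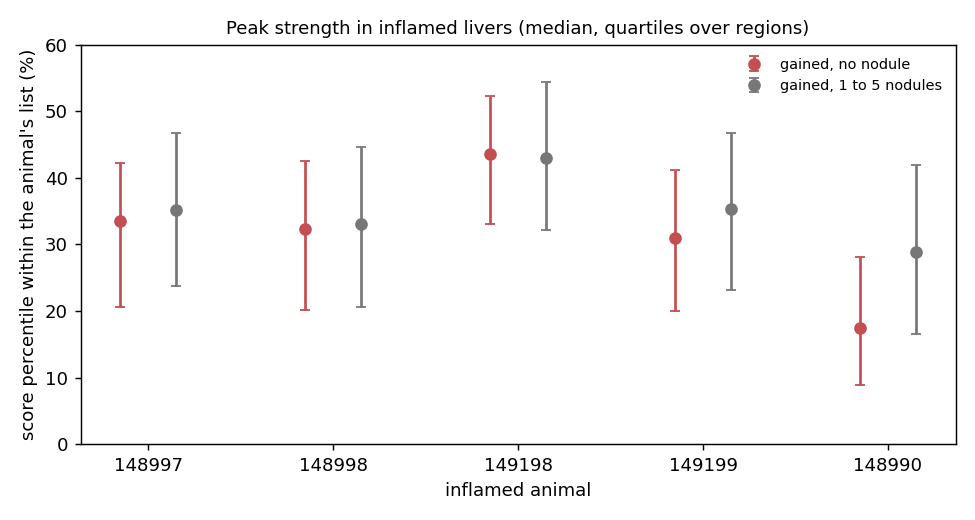
Score percentile within each inflamed animal's own list (y axis, %; x axis, animal) for inflammation-only regions (red) and gained regions with a peak in 1 to 5 nodules (grey), as median and quartiles over regions. The pairs lie close together in 4 animals, and in 148990 the red median (17.5) is below the grey one (28.9).

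A call in all 5 livers is as firm as its weakest peak. The lowest of the 5 scores had a median of 80.1 over inflammation-only regions, 105 over the other gained regions and 251 over gained regions shared by all nodules. A score of at least 100 in every inflamed liver was reached by 176 of the 484 regions (36.4%) and by 1157 of the 2229 other gained regions (51.9%), and a score of at least 200 by 39 (8.06%) and 480 (21.5%). The weakest liver was 148990 in 311 regions (64.3%), 149199 in 65, 148998 in 51, 148997 in 47 and 149198 in 10. In 148990, 247 of the 484 peaks (51.0%) scored under 100, while in 149198 23 (4.75%) did. Most inflammation-only calls thus rested on at least 1 weak peak, most often that of 148990.

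Just inside the pattern, the 3 regions with the lowest percentile in any inflamed liver had scores close to 50. The region on chromosome 18 from 70299698 to 70302015 scored 50.1 in 148990 and 215 to 267 in the other 4 livers. That on chromosome 12 from 89560936 to 89562819 scored 50.2 to 87.2 in the 5 livers, and that on chromosome 4 from 149642980 to 149645050 scored 50.3 to 71.8. The first is thus a firm region in 4 livers that a single weak peak admitted, and the other 2 are weak throughout. Just outside it, by 1 nodule peak, the 3 regions given are those with the highest of these lowest percentiles, and they do not stand for the rest. Over all 591 such regions the median score in inflamed livers was 167, against 175 for inflammation-only regions. On chromosome 1 from 149020546 to 149024766 the scores were 3100, 1611, 3100, 1161 and 3100 in 148997, 148998, 149198, 149199 and 148990, and HCC animal 125279 had a peak with a score of 352. On chromosome 7 from 47931563 to 47935580 inflamed livers scored 764 to 1230 and HCC 125279 scored 1345. On chromosome 2 from 103138461 to 103145019 they scored 604 to 1399 and the same nodule 1556. In these last 2 regions the nodule that kept the region out of the set had a score higher than any inflamed liver, though scores of different lists are not on one scale.

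The strongest inflammation-only region lay on chromosome 4 from 46076036 to 46079678. Its scores were 1330 in 148997, 2377 in 148998, 1407 in 149198, 1834 in 149199 and 1803 in 148990, and the lowest of its percentiles was 71.2. The 5 peaks were of similar length, 3169 to 3506 bp, with 2946 bp in common. The nearest nodule peak was 18660 bp away and the nearest WT peak 22612 bp. This region was far ahead of the others, since the next lowest percentile was 57.0.

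Another pair of strong regions, ranked 2 and 4, were neighbours on chromosome 6, from 32019691 to 32025352 and from 31999078 to 32004347. The former scored 853, 770, 1593, 1053 and 534 in 148997, 148998, 149198, 149199 and 148990, and the latter 493, 521, 1114, 654 and 436. All inflamed livers were well above the limit in both. Together with 2 weaker regions, from 31966079 to 31970035 and from 32148248 to 32151719, they formed a run of 4 inflammation-only regions with no other merged region among them, over 185641 bp. In the first of these, scores were 137 to 689, and in the last 101 to 187. No WT liver or nodule had a peak over the run or near it. From the 4 regions the nearest nodule peak was 192895 to 372227 bp away and the nearest WT peak 192680 to 372141 bp. Over this stretch peaks were called in inflamed livers alone.

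Of the 10 strongest regions, the third lay on chromosome 14 from 76925470 to 76929697 with scores of 454 to 1368, and here a nodule peak was near, at 2330 bp, and a WT peak at 2305 bp. The fifth, on chromosome 13 from 73426068 to 73429649, scored 399 to 1240, and the sixth, on chromosome 1 from 166725827 to 166731015, 370 to 1690. The latter lay 5742 bp from a region with a peak in all 15 animals. The seventh, on chromosome 1 from 170125280 to 170129240, scored 330 to 624, and the eighth, on chromosome 7 from 97517436 to 97522900, 328 to 2180. The ninth and the tenth lay on chromosome 2, from 106966005 to 106969311 with scores of 341 to 1223 and from 20197123 to 20201253 with scores of 325 to 824. After the pair on chromosome 6, the ninth was the most isolated of the 10, with its nearest WT peak at 150172 bp and its nearest nodule peak at 150282 bp. Some strong inflammation-only regions thus lay near peaks of all groups while others stood alone.

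Measured by the length common to all 5 inflamed livers, the largest regions were others. On chromosome 18, from 66382483 to 66395339, 8171 bp lay under a peak in every inflamed liver, and the peaks covered 8488 to 12661 bp. A region on chromosome 11 from 8686270 to 8703576 was the widest of the set, 17307 bp, with 7530 bp in common and 7598 to 17234 bp per liver. It lay 2943 bp from the nearest nodule peak but 78020 bp from the nearest WT peak. Next came chromosome 11 from 80579127 to 80589499 (6681 bp in common), chromosome 2 from 105051063 to 105058124 (6593 bp) and chromosome 13 from 99420580 to 99427753 (6238 bp). The scores of these 5 regions were moderate, from 170 to 1013. None of them was among the 10 strongest.

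**Figure D4:**
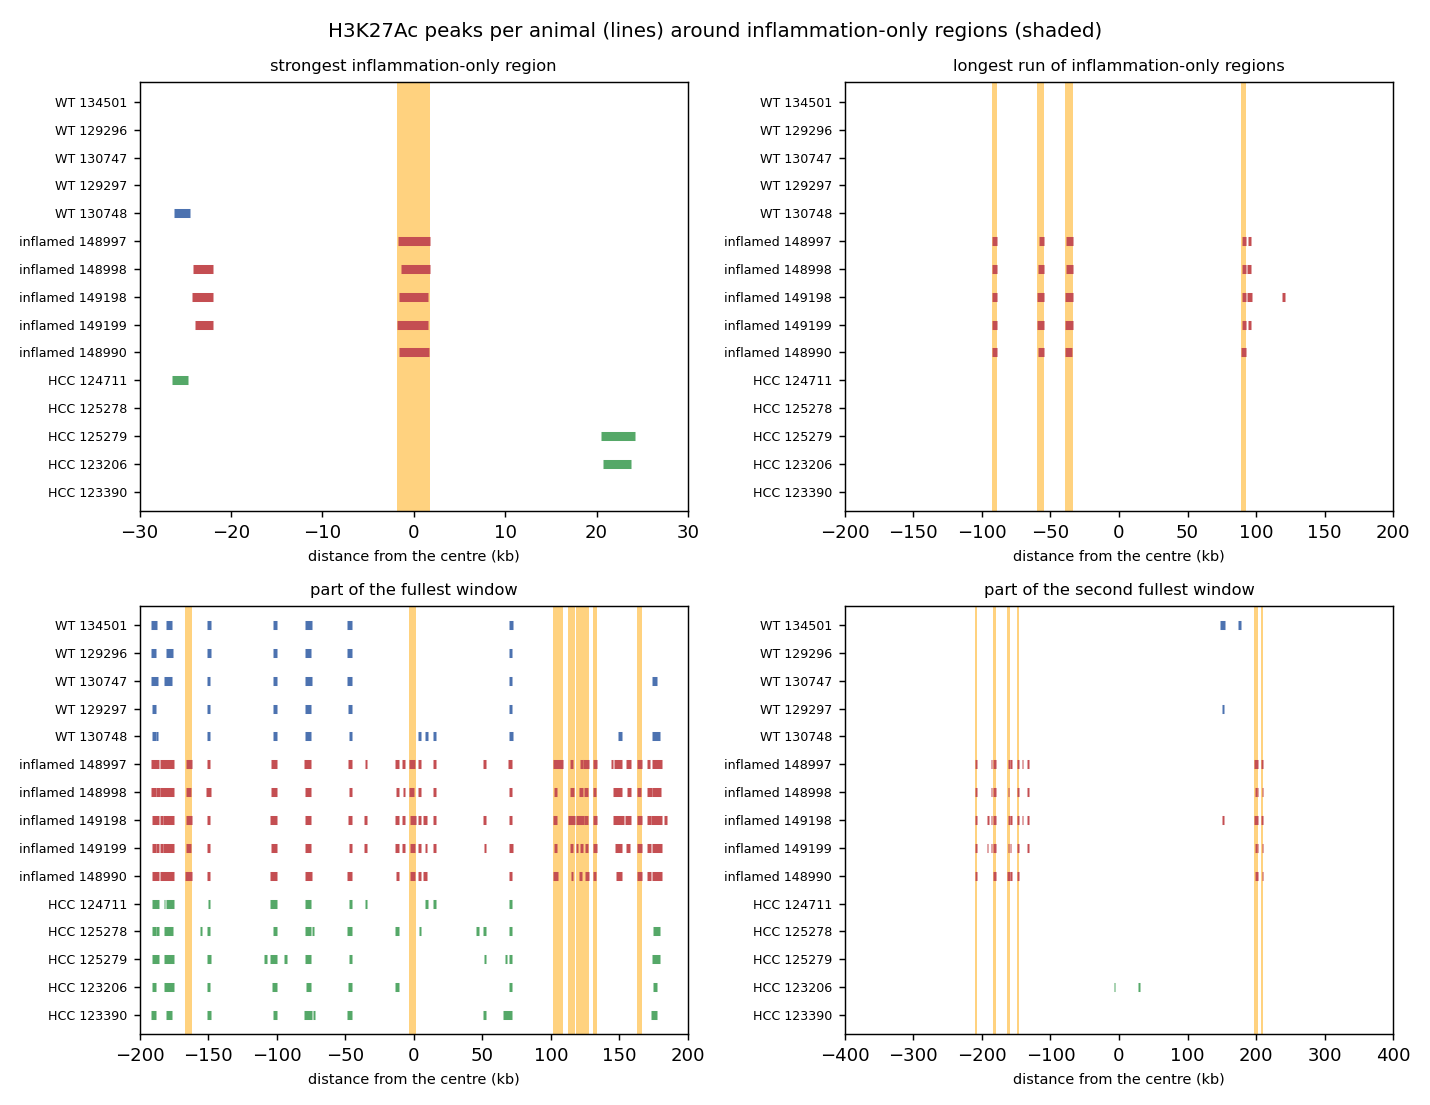
Peaks of the 15 animals (horizontal lines; rows, WT blue, inflamed red, HCC green) by distance from the centre (x axis, kb) around the strongest inflammation-only region (chromosome 4), the run of 4 on chromosome 6, and the regions of the fullest windows on chromosome 1 (7) and chromosome 17 (6); shaded bands are inflammation-only regions. Every inflamed liver and no WT liver or nodule has a line in each band; on chromosome 6 no WT liver or nodule has any line within the 200 kb shown on each side, while on chromosome 1 all groups have peaks between the bands.

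Inflammation-only regions tended to lie beside each other. The nearest merged region was also inflammation-only for 57 of the 484 (11.8%), compared with 33 of the 2229 other gained regions (1.48%) and 0.841% of all merged regions. Where the nearest region was a gained one, it was inflammation-only for 57 of 98 (58.2%), and for 33 of 276 (11.96%) when starting from another gained region. Among all gained regions the share was 17.8%. The other gained regions were defined by a nodule peak, so that their neighbours are not an unselected reference. Regions are not independent samples, and these shares are given without a test. In order along the chromosomes, 396 of the regions stood singly, 52 in pairs of successive merged regions, 24 in 8 runs of 3 and 12 in 3 runs of 4. Besides chromosome 6, runs of 4 were found between 137357914 and 137390125 of chromosome 1 and between 81238945 and 81301050 of chromosome 17. In the run on chromosome 1 scores were 57.0 to 603 and nodule peaks lay 29657 to 45654 bp away. In that on chromosome 17 scores were 93.8 to 473, and a nodule peak lay 3970 bp from its first region. Whether such neighbours are pieces of one acetylated stretch was not tested.

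Counted in windows of 1 Mb that start at an inflammation-only region, 288 of the 484 windows held no further one and the fullest held 7. This was on chromosome 1 from 137089621 to 138089620, where 7 of the 9 gained regions were absent from every nodule. It was an otherwise busy stretch, with 61 merged regions, 9 of them with a peak in all 15 animals. WT livers had a peak in 14 to 22 of the 61 regions, inflamed livers in 29 to 43 and nodules in 15 to 29. The second window, on chromosome 17 from 68275583 to 69275582, was nearly silent outside inflamed livers. Its 17 merged regions had a peak in 10 (148997), 8 (148998), 14 (149198), 12 (149199) and 7 (148990) cases in inflamed livers. WT livers had 2 peak-bearing regions in 134501, 1 in 129297 and none in the other 3, and nodules had 2 in 123206 and none in the other 4. All 6 gained regions of this window were inflammation-only. The third window, on chromosome 11 from 8434788 to 9434787, held 5, of 6 gained and 29 merged regions.

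WT peaks lay further from inflammation-only regions than from the other gained regions, and both sets were chosen to be without a WT peak. These distances are not given here for all merged regions. For nodules the same contrast draws on the values that chose the regions, and nothing is read from it. The other gained regions were defined by having a nodule peak, and a nodule peak that touched a region kept it out of the set. From the edge of an inflammation-only region the nearest peak of any WT liver was 27334 bp away in the median and the nearest peak of any nodule 16456 bp, against 13869 and 4368 bp for the other gained regions. The nearest further peak of an inflamed liver was about as far in both sets, at 5968 and 5337 bp. A WT peak lay within 5000 bp of 71 of the 484 regions (14.7%, exact 95% interval 11.6 to 18.1) and a nodule peak within 5000 bp of 102 (21.1%, interval 17.5 to 24.98). For the other gained regions these shares were 24.2% and 54.0%. No nodule peak lay within 50000 bp of 98 inflammation-only regions (20.2%) and of 5.79% of the other gained regions. A nodule peak lay within 1000 bp of 19 inflammation-only regions (3.93%). The nearest merged region had a peak in all 15 animals for 6.40% of inflammation-only regions, 14.0% of the other gained regions and 21.7% of all merged regions.

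By animal, a peak lay within 5000 bp of 7.64% (134501), 8.06% (129296), 9.71% (130747), 6.20% (129297) and 8.47% (130748) of the inflammation-only regions in WT livers. In nodules the shares were 6.61% (124711), 12.4% (125278), 15.5% (125279), 8.26% (123206) and 7.02% (123390), and in inflamed livers they were 27.1 to 41.1%. HCC animals 124711, 123206 and 123390 thus lay within the range of the WT livers, and the 2 nodules with the longest lists, 125279 and 125278, above it. The means were 9.96 ± 3.85% in HCC nodules and 8.02 ± 1.28% in WT livers (SD, n = 5 each), a difference of 1.94 percentage points within the spread between animals (exact permutation test, two-sided, p = 0.365, Benjamini-Hochberg adjusted p = 0.365 over 2 tests). Inflamed livers were not tested against either group, since the regions were chosen for peaks in these livers.

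Chromosomes differed in the share of their gained regions that no nodule carried. It was highest on chromosome 17 (38 of 134, 28.4%, exact 95% interval 20.9 to 36.8), chromosome 18 (25 of 97, 25.8%, interval 17.4 to 35.7) and chromosome 5 (45 of 179, 25.1%, interval 19.0 to 32.2). It was lowest on chromosome 19 (4 of 65, 6.15%, interval 1.70 to 15.0), chromosome 16 (7 of 97, 7.22%, interval 2.95 to 14.3) and chromosome 3 (15 of 144, 10.4%, interval 5.95 to 16.6). The intervals of chromosomes 3, 16 and 19 lay below the 17.8% of all gained regions and those of chromosomes 5 and 17 above it. They treat regions as independent, which neighbouring regions are not. In total numbers chromosomes 2 (48 regions), 1 (45) and 5 (45) held most.

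**Figure D5:**
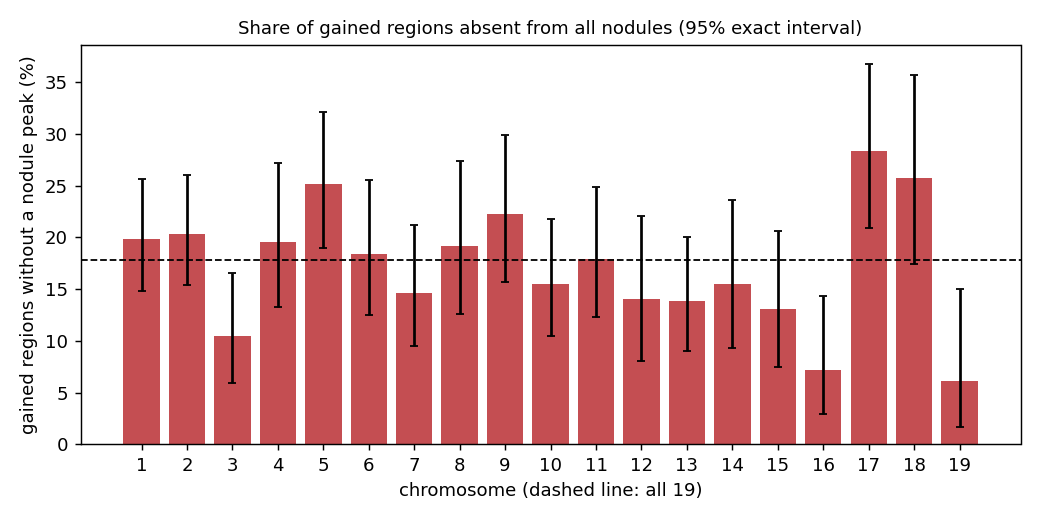
Share of gained regions without a peak in any nodule (y axis, %) on each chromosome (x axis), with exact 95% binomial intervals; the dashed line is the share over all 19 chromosomes, 17.8%. Chromosome 17 is highest (28.4%) and chromosome 19 lowest (6.15%).

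The low chromosomes were those on which HCC animal 125279 had a peak in the largest share of gained regions. A peak in any nodule takes a region out of the set, so that this draws on the values that chose the regions. HCC 125279 had a peak in 92.3% of the gained regions of chromosome 19, 87.6% on chromosome 16 and 84.7% on chromosome 3, but in 65.7% on chromosome 17. Among all merged regions of these chromosomes its shares were 66.4, 65.6, 67.4 and 66.2%, which differ by less. When this nodule was set aside, the share of gained regions absent from the other 4 was 34.7% over all chromosomes. Chromosome 17 was again highest with 48.5% and chromosome 19 lowest with 12.3%, while chromosome 3 moved to 36.8% and chromosome 16 was at 25.8%. On chromosome 19, HCC 125278 (56.9%), 123206 (56.9%) and 123390 (40.0%) also had their highest share of gained regions of any chromosome. HCC 124711 (7.69%) did not. On chromosome 17 the gained regions were less often occupied than over all chromosomes in HCC 125278 (36.6%), 125279 (65.7%), 123206 (25.4%) and 123390 (17.9%), but not in 124711 (10.4%).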

How the data were processed

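H3K27Ac peak lists of 15 animals were used, grouped by the source given in the sample records. The IgG sample was not used. Per the submitters' processing notes the tools were Bowtie 0.12.7 and MACS 1.4 and the build mm9. The authors called peaks in each animal and deposited the position and score of each peak, without read counts. Scores run from 50 and many are tied at 3100; their scale is not stated, and they were used as ranks within a list and, as deposited, beside each other. Positions are printed counting from 1.

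Overlapping or adjoining peaks were merged, and 1 shared bp sufficed for a region to count as occupied. The 28 peaks on chromosome Y were not used. The regions, windows and lists were chosen with earlier results of these data known. Regions named are the 10 with the highest lowest percentile over the 5 inflamed livers, the 5 with the longest common stretch, the 3 fullest 1 Mb windows, and the 3 lowest inside and the 3 highest just outside the pattern. Runs of 4, and the 2 tests of nodules against WT livers, were chosen after the data were seen. Those used exact two-sided permutation of the difference of means over animals. Motifs, gene lists and printed sequences need a genome of mm9 and were planned but not computed.

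The alternatives were equal lists of the best 25867 peaks, the top 50% of each list, scores of at least 100, a peak over at least 50% of a region, regions from inflamed lists alone, merging across 1000 bp, 1000 bp bins of which 500 bp or more lay under peaks, at least 4 of 5 inflamed with at most 1 WT liver and 1 nodule, chromosome X, and leaving out each animal. The scripts were tested on simulated data. Python 3.11.15, NumPy 2.4.6, SciPy 1.17.1 and matplotlib 3.10.9 were used.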

Additional observations from a re-analysis of the deposited data

Results flagged for a closer look

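Of 12 sets of 5 animals, 4 held a value well apart from the remaining animals, where chance flags about 1 in 20. HCC animal 125279 alone among nodules had a peak in 457 gained regions, and the other nodules in 15 to 67. Left out of the choice, the same nodule had a peak in 48.6% of the chosen regions, against 3.01 to 12.2% in the others. Inflamed animal 148990 was the liver without a peak in 497 of the regions found in 4 inflamed livers alone, against 10 to 57 for the others, and left out of the choice it had a peak in 49.3% of the chosen regions, against 89.5 to 98.0%. These values are 2 views each of the same animals.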

How the results depend on the processing

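The 484 regions depend on which peaks of each list are kept and on single animals more than on how regions are drawn. The count was 214 with equal lists and 134 with the top 50% of each list, of which 81 and 5 of the original 484 regions were part; 1768 in bins of 1000 bp, where a region counts several times; 2795 with at least 4 inflamed livers and at most 1 WT liver and 1 nodule; and 1606 without inflamed 148990 and HCC 125279. It was 487 to 985 with 1 animal left out (985 without inflamed 148990, 944 without HCC 125279), and 376 to 642 under the other settings. The share of gained regions absent from all nodules was 22.0% with equal lists, 11.8% with the top 50%, 20.7% with a peak over at least 50% of a region, 40.2% with the relaxed pattern, 42.8% without both animals, and 14.4 to 34.3% with 1 animal left out (34.3% without HCC 125279). The percentile difference moved to -9.05 points with the relaxed pattern and was -6.13 to -2.98 with 1 animal left out. The difference in length under peaks turned to 178 bp with equal lists and 284 bp with the top 50%, was -317 bp with a peak over at least 50% of a region, and was -197 to -131 bp with 1 animal left out. The share with a nodule peak within 5000 bp was 16.4% with equal lists and 16.4% with the top 50%, 25.7% with a peak over at least 50%, 15.4% with peaks merged across 1000 bp, 37.8% in bins and 34.3% with the relaxed pattern, and 20.5 to 24.98% with 1 animal left out. That for WT peaks was 10.4% with the top 50%, 19.4% with a peak over at least 50%, 11.2% merged across 1000 bp, 29.6% in bins and 21.5% with the relaxed pattern, and 12.5 to 17.1% with 1 animal left out. Mean held-out shares moved by less than 1 SD under all 8 settings that gave them. The difference of nodules minus WT livers was 0.654 to 4.04 points for nearby peaks under 11 settings and 1.25 to 2.76 with 1 animal left out. For held-out shares it was 5.32 to 11.99 points under 8 settings, from which, as above, nothing is read. The causes were not tested. No paired analysis was possible, since each animal gave 1 list of peaks and nothing in the records links animals of different groups. Depth limits what absence means, since it is unknown for every library.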
